A study of Gallus gallus with 6 samples.

Results

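Aminoacyl-tRNA synthetase transcripts were examined in the pectoral muscle of broiler chickens fed with or without added vitamin E. The genes were taken by name from the expression table, as every row called by a single amino acid letter followed by ARS, with or without a final 1 or 2, plus EPRS, FARSA and FARSB. This gave 34 of the 20943 genes in the table, 19 whose names mark the cytosolic enzymes and 15 whose names end in 2, the usual mark of a mitochondrial enzyme. The birds were females sampled at 35 days of age. All of them received a basal diet, which was given to control birds with 0 IU/kg of extra vitamin E and to the others with 100 IU/kg, supplied as DL-α-tocopheryl acetate. There were 3 libraries of poly(A)-selected RNA per diet. The labels do not say whether each library came from a different bird, so p-values measure only the spread between these samples. No strain, line or genetic alteration is named in the labels.

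Each synthetase joins an amino acid to the transfer RNAs that carry it to the ribosome. The cytosol and the mitochondrion make protein separately, and most amino acids have a cytosolic enzyme and a mitochondrial enzyme encoded by different nuclear genes. In mammals, GARS and KARS each serve both compartments from a single gene, and several cytosolic enzymes sit together in a multisynthetase complex held by scaffold proteins. In mammalian cells short of amino acids, the transcription factor ATF4 raises many of the cytosolic synthetase genes along with amino acid transporters and synthesis enzymes.

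Levels are in FPKM, the fragments counted on a gene scaled by its length and by the size of the library, and whole reads could be worked back from them. The library totals behind the FPKM were between 14161399 and 25477341 reads, the most in control replicate 1. Of each total, 99.8% lay in genes whose reads were recovered, so the number of all reads sequenced is not known. The synthetase genes took between 0.155% and 0.174% of these totals. Single genes rested on between 24 reads (EARS2) and 5968 reads (EPRS) in a library, and 5 of the 34 genes had under 100 reads in at least 1 library. On the first principal component of all tested genes, with 38.4% of the variance, control replicates 1 and 3 scored -34.4 and -14.2 and the other libraries 5.87 to 17.4. Control replicate 3 was at the end of the second, with 20.7%.

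No synthetase gene passed the test between diets. With limma, 0 of the 34 genes had an adjusted p under 0.05, where 0% of the 11320 genes whose mean reached 1 FPKM did. At an unadjusted p under 0.05 there were 0 higher and 0 lower synthetase genes, while 5.97% of all tested genes were higher and 3.14% lower with vitamin E at that level. The lowest p among the 34 was 0.0913, for HARS (adjusted p = 0.602). In 1 synthetase gene, FARSA, the 3 vitamin E libraries all lay above the 3 controls, and in 0 genes did they all lie below. Over all tested genes the groups were apart in this way in 8.86% as higher and 5.72% as lower. EARS2 had the widest gap between group means, at 1.33-fold, and the other 33 genes were within 1.21-fold. The 95% interval of the difference lay inside 1.5-fold of no change, on the scale of FPKM + 1, in 31 of the 34. The exceptions on that scale were IARS, TARS and NARS2, and the widest bound was a 1.64-fold lower value of IARS. The added 1 shrinks the change and the spread of low genes. The log2 difference of EARS2 was 0.202 on that scale and 0.355 with 0.1 added in place of 1. These intervals are the ranges of difference that fit the data from 3 libraries a group, and not limits of detection. Outside the synthetases, a log2 difference as large as 4.63, in CHAC1, did not pass either.

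Summed over genes, the cytosolic synthetases came to 533.5 ± 24.4 FPKM in controls (SD, n = 3) and 529.4 ± 29.2 FPKM with vitamin E. The mitochondrial synthetases came to 61.2 ± 3.40 and 63.8 ± 1.39 FPKM. The cytosolic sum was thus 9.001, 7.95 and 9.25 times the mitochondrial sum in the controls and 8.56, 8.35 and 7.97 times in the vitamin E libraries. The diets overlapped in these sums and in their ratio. The sums cover unlike sets of amino acids, since KARS, GARS, SARS and QARS have no counterpart among the mitochondrial genes counted. These averaged 84.9, 33.3, 30.0 and 14.3 FPKM over all libraries. KARS and GARS, which serve both compartments in mammals, are counted wholly in the cytosolic sum. TARS2 and HARS2, at 9.03 and 1.61 FPKM, are in the mitochondrial sum by name only. Synthetase rows under other names, in either compartment, are in neither sum. Because the RNA came from whole muscle, fewer cells of a type and less RNA per cell cannot be told apart in any of these values.

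Among the cytosolic genes the mean level over the 6 libraries ran from 7.35 to 84.9 FPKM, with a median of 24.3 FPKM, where the median of all tested genes was 6.70 FPKM. KARS, for lysine, was highest (chromosome 11, 20108842 to 20121014). It measured 79.5, 83.3 and 79.5 FPKM in the controls and 101, 86.5 and 79.2 FPKM with vitamin E. DARS, for aspartate, was next (chromosome 7, 30835170 to 30871179), at 62.3, 72.6 and 66.4 FPKM in controls, against 68.3, 64.2 and 61.9 FPKM with vitamin E. The lowest library of KARS lay above the highest of DARS, so these genes keep their order in every library. EPRS, a fused enzyme for glutamate and proline, and AARS, for alanine, followed with overlapping ranges. EPRS measured 43.8, 38.5 and 39.5 FPKM in controls, against 42.2, 41.0 and 41.6 FPKM with vitamin E, and AARS stayed between 38.9 and 40.7 FPKM. LARS, for leucine, which also takes part in leucine sensing in mammals, was the lowest cytosolic gene with 7.61, 6.77 and 8.45 FPKM in controls, against 7.20, 7.24 and 6.81 FPKM with vitamin E. Positions are copied from the deposited table, and no source used here names its genome build.

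**Figure D1:**
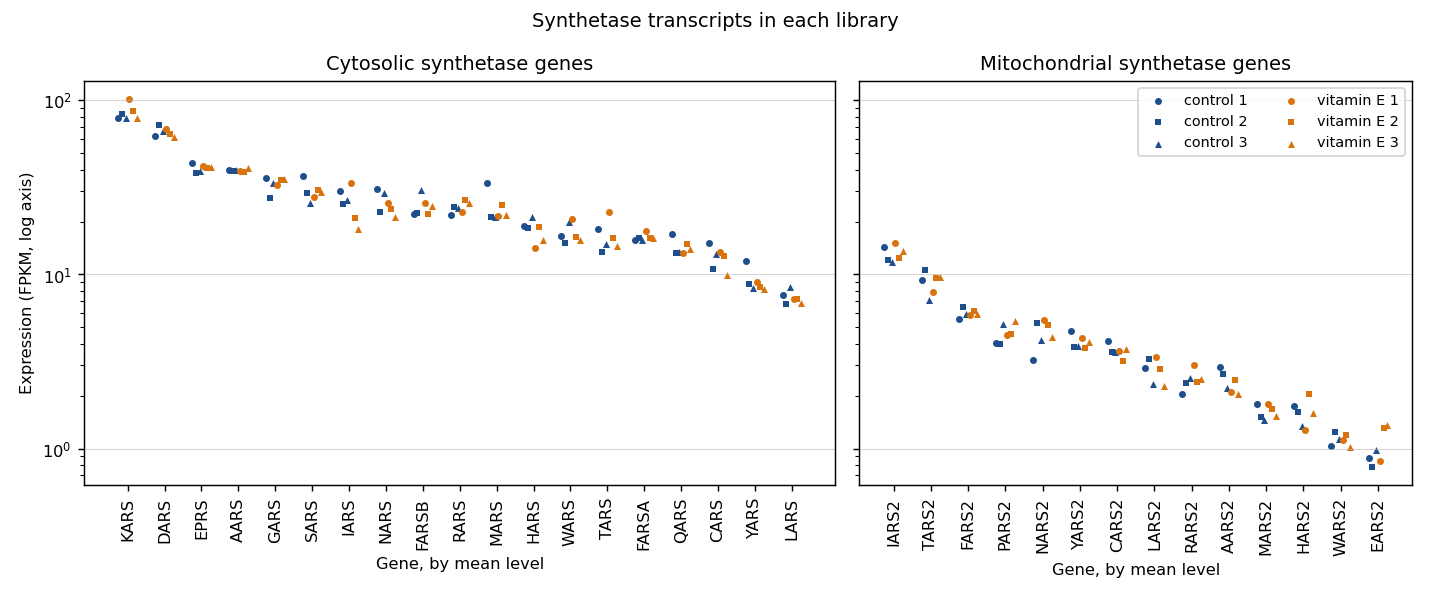
FPKM (log axis) of each synthetase gene in the 3 control libraries (blue) and the 3 vitamin E libraries (orange), with the 19 cytosolic genes on the left and 14 of the mitochondrial genes on the right, ordered by mean level. KARS is the highest at 79.2 to 101 FPKM, EARS2 the lowest at 0.785 to 1.37 FPKM, and the diets overlap in every gene but FARSA.

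Mitochondrial genes lay lower, with mean levels from 1.03 to 13.2 FPKM and a median of 3.64 FPKM. IARS2, for isoleucine, was highest (chromosome 3, 18807578 to 18832220), at 14.4, 12.1 and 11.7 FPKM in controls, against 15.1, 12.4 and 13.6 FPKM with vitamin E. TARS2, for threonine, measured 9.32, 10.6 and 7.16 FPKM in controls, against 7.97, 9.49 and 9.64 FPKM with vitamin E. The rows named TARS2 and HARS2 carry a cytoplasmic enzyme as their best protein match in the table, so their compartment rests on the name. FARS2, for phenylalanine, followed at 5.52, 6.50 and 5.91 FPKM in controls, against 5.88, 6.20 and 5.91 FPKM with vitamin E. The lowest were WARS2 for tryptophan and EARS2 for glutamate. Of the 19 cytosolic genes, 16 had a mean above that of IARS2. CARS, YARS and LARS, for cysteine, tyrosine and leucine, did not.

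The excess of the cytosolic transcript over its mitochondrial counterpart differed widely between amino acids. For threonine TARS was only 1.77 ± 0.441 times TARS2 in controls (SD, n = 3) and 2.03 ± 0.735 times with vitamin E. For isoleucine the ratio of IARS to IARS2 was 2.16 ± 0.103 and 1.75 ± 0.435, and for tyrosine that of YARS to YARS2 was 2.33 ± 0.177 and 2.11 ± 0.105. LARS was 2.07 to 3.61 times LARS2, and FARSA was 2.48 to 3.03 times FARS2. These were the most even of the pairs as named, with TARSL2 left out and the compartment of TARS2 resting on its name. Toward the other end, AARS was 15.3 ± 2.31 and 18.1 ± 2.12 times AARS2, and EPRS was 46.2 ± 5.30 and 37.1 ± 11 times EARS2. EARS2 had 24 to 45 reads in a library, so counting error alone is large in the last ratio. The asparagine pair NARS and NARS2 stood at 9.66, 4.33 and 7.01 in controls and at 4.73, 4.65 and 4.86 with vitamin E. The vitamin E libraries were close together there, and the lowest control lay below them. In all 16 such ratios the diets overlapped.

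**Figure D2:**
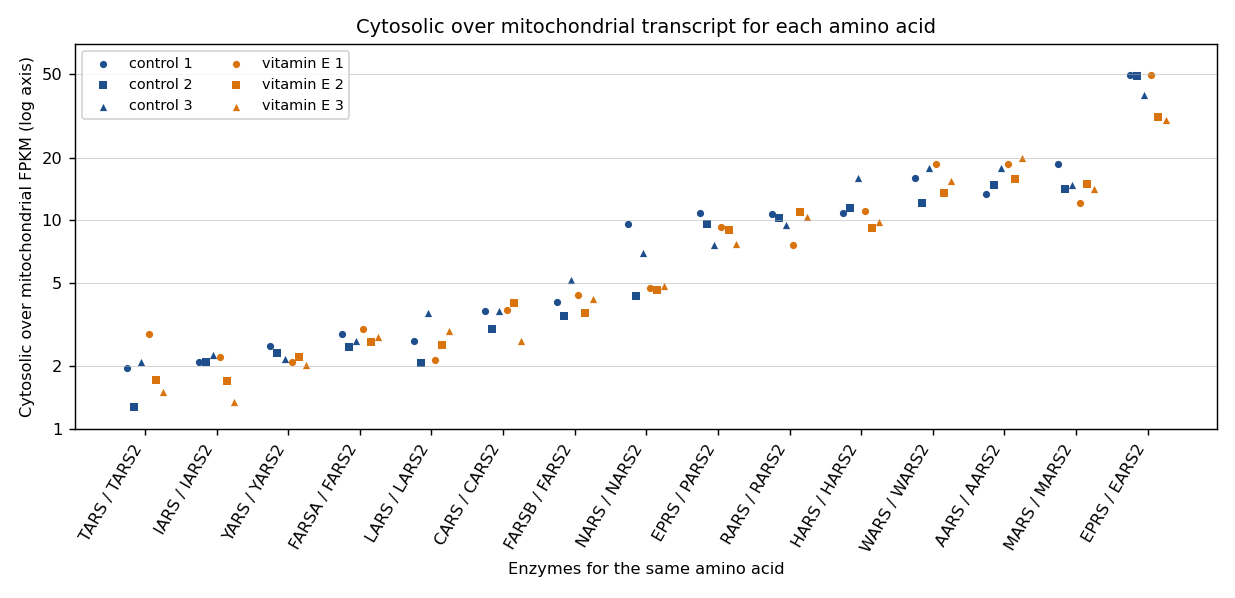
Ratio of cytosolic to mitochondrial FPKM (log axis) for enzymes of the same amino acid (15 of the 16 ratios), 1 point per library, controls in blue and vitamin E in orange. The ratios run from 1.27 (TARS over TARS2) to 49.8 (EPRS over EARS2), and no pair separates the diets. TARSL2, a second threonine enzyme of the cytosol, is not included. The compartment of TARS2 and of HARS2 rests on the name.

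In the multisynthetase complex, 8 enzymes were measured, namely EPRS, IARS, LARS, MARS, QARS, RARS, KARS and DARS. Their log2 differences, vitamin E minus control on the scale of log2(FPKM + 1), ran from -0.21 to 0.13 with a median of -0.046. IARS, for isoleucine (chromosome 12, 3503069 to 3593631), measured 30.1, 25.5 and 26.7 FPKM in controls, against 33.4, 21.2 and 18.3 FPKM with vitamin E. Vitamin E replicate 1 was the highest of all libraries and the other two were the lowest, so the difference of -0.21 ± 0.22 (SE; limma, adjusted p = 0.803) averages values on either side of the controls. RARS, for arginine, measured 22.1, 24.5 and 24.0 FPKM in controls, against 22.8, 26.7 and 25.8 FPKM with vitamin E, a difference of 0.089 ± 0.11. KARS differed by 0.13 ± 0.13, DARS by -0.048 ± 0.11, EPRS by 0.037 ± 0.11 and LARS by -0.087 ± 0.11. MARS, for methionine, differed by -0.12 ± 0.19 and QARS, for glutamine, by -0.044 ± 0.13. EPRS and IARS2 both lie on chromosome 3, on opposite strands with 14226 bases between them, and both differed by under 0.1 between diets.

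Outside the complex, 11 cytosolic genes had log2 differences from -0.26 to 0.17 with a median of -0.037. HARS, for histidine (chromosome 13, 918098 to 929440), measured 19.01, 18.5 and 21.4 FPKM in controls, against 14.3, 18.8 and 15.8 FPKM with vitamin E. Vitamin E replicates 1 and 3 lay below every control and replicate 2 lay among them, and the difference was -0.26 ± 0.13 (SE). HARS2 ends 170 bases before HARS begins, on the same strand, and it averaged 1.57 ± 0.206 and 1.65 ± 0.386 FPKM. NARS, for asparagine (chromosome Z, 367071 to 377791), measured 31.1, 22.8 and 29.3 FPKM in controls, against 25.8, 23.7 and 21.3 FPKM with vitamin E. Controls 1 and 3 lay above all vitamin E libraries and control 2 below 2 of them, with a difference of -0.22 ± 0.15 (limma, adjusted p = 0.704).

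TARS, for threonine (chromosome Z, 10102356 to 10116875), measured 18.3, 13.5 and 14.99 FPKM in controls, against 22.9, 16.3 and 14.5 FPKM with vitamin E. Its difference of 0.17 ± 0.19 rested on vitamin E replicate 1, and without that library it was -0.0085. YARS, for tyrosine, measured 11.98, 8.82 and 8.41 FPKM in controls, against 9.02, 8.44 and 8.28 FPKM with vitamin E. Control replicate 1 stood above the other 5 libraries, and the difference of -0.15 ± 0.15 was -0.0059 without it. GARS, for glycine, measured 35.7, 27.3 and 33.7 FPKM in controls, against 32.8, 34.9 and 35.5 FPKM with vitamin E, a difference of 0.098 ± 0.13 that was -0.013 without control replicate 2, the lowest library. AARS measured 39.7, 39.2 and 39.8 FPKM in controls, against 39.4, 38.9 and 40.7 FPKM with vitamin E, so that its highest library was 1.04 times its lowest. SARS, for serine, lay between 25.6 and 36.8 FPKM and CARS, for cysteine, between 9.92 and 15.3 FPKM, with differences of -0.042 ± 0.15 and -0.10 ± 0.17.

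The cytosolic phenylalanine enzyme is built from α subunits encoded by FARSA and β subunits encoded by FARSB. FARSA (chromosome 30, 15259 to 18129) measured 15.8, 16.1 and 15.7 FPKM in controls, against 17.8, 16.2 and 16.2 FPKM with vitamin E. The diets were apart only narrowly, and the difference was 0.073 ± 0.10 (SE; limma, adjusted p = 0.86). FARSB averaged 25.2 ± 4.65 and 24.3 ± 1.75 FPKM (SD, n = 3), with control replicate 3 highest at 30.6 FPKM. FARSA stood at 0.704, 0.712 and 0.514 times FARSB in controls and at 0.693, 0.724 and 0.654 times with vitamin E, so the α transcript was the lower in every library.

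**Figure D3:**
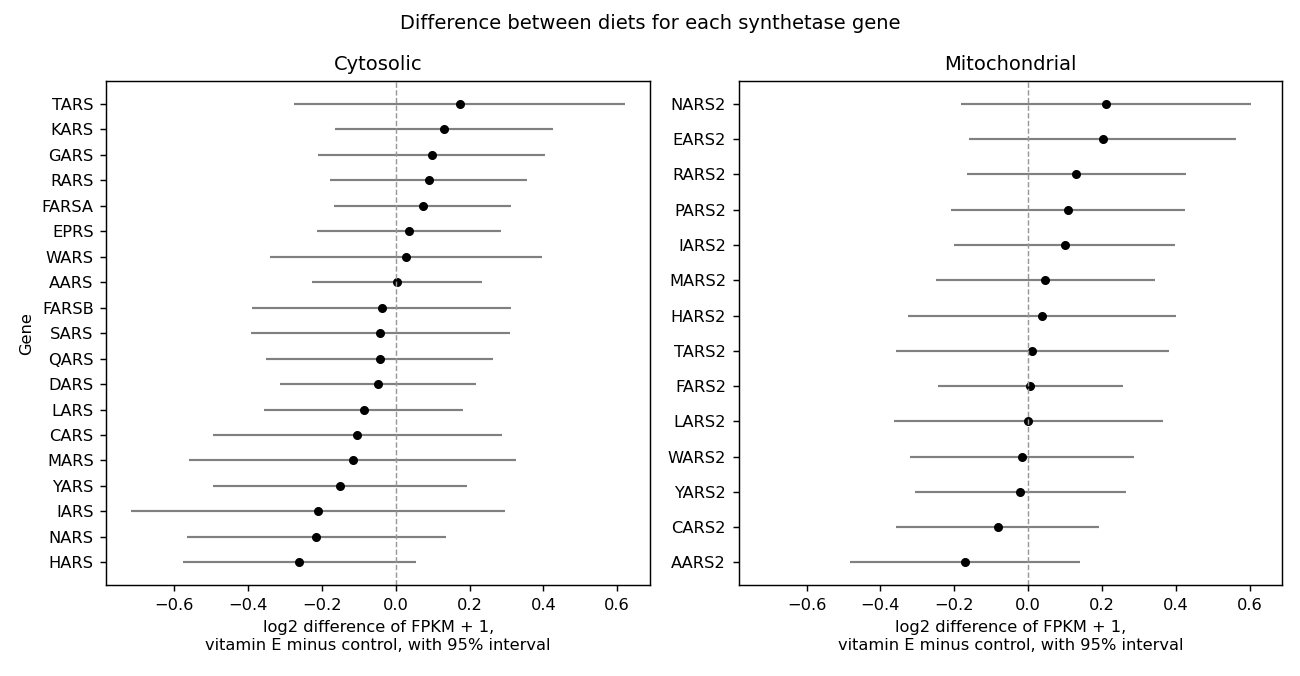
Log2 difference (vitamin E minus control, of FPKM + 1) with its 95% interval from limma for the 19 cytosolic genes on the left and 14 mitochondrial genes on the right. Every interval includes 0, and the points run from -0.26 for HARS to 0.21 for NARS2.

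Synthetases fall into structural classes I and II, which differ in the fold of their catalytic core. The 16 class I genes had a median log2 difference of -0.019 and the 17 class II genes 0.011, leaving out EPRS, which joins an enzyme of each class. Neither class had a gene with an unadjusted p under 0.05, where 5.97% of all tested genes were higher and 3.14% lower.

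Of the 15 mitochondrial genes, 11 had a positive and 4 a negative log2 difference, with a median of 0.037. The 19 cytosolic genes split into 8 positive and 11 negative, with a median of -0.042, and the median of all tested genes was 0.019. This split depended on scaling. With TMM-type or median-of-ratios scaling the mitochondrial genes split 8 positive to 7 negative and the cytosolic genes 6 to 13, and quantile normalization put the mitochondrial genes at 7 to 8. Without control replicate 1 the cytosolic genes split 12 to 7, and without vitamin E replicate 2 the mitochondrial genes split 7 to 7.

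Among mitochondrial genes the smallest p belonged to EARS2 (chromosome 14, 6962073 to 6968875). It measured 0.884, 0.785 and 0.986 FPKM in controls, against 0.848, 1.31 and 1.37 FPKM with vitamin E, a log2 difference of 0.20 ± 0.15 (SE; limma, adjusted p = 0.732). Vitamin E replicates 2 and 3 lay above every control and replicate 1 lay among them. AARS2, for alanine, measured 2.96, 2.67 and 2.22 FPKM in controls, against 2.10, 2.47 and 2.05 FPKM with vitamin E, a difference of -0.17 ± 0.13. Its cytosolic counterpart AARS differed by 0.0036.

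NARS2, for asparagine (chromosome 1, 192670661 to 192723417), measured 3.22, 5.27 and 4.18 FPKM in controls, against 5.47, 5.10 and 4.38 FPKM with vitamin E. Its difference of 0.21 ± 0.17 was 0.066 without control replicate 1, and that of NARS was -0.13 without the same library. RARS2, for arginine, measured 2.07, 2.37 and 2.53 FPKM in controls, against 3.00, 2.42 and 2.49 FPKM with vitamin E, a difference of 0.13 ± 0.13. In NARS2 and RARS2 control replicate 1 was the lowest library and vitamin E replicate 1 the highest. IARS2 differed by 0.099 ± 0.13, TARS2 by 0.011 ± 0.16 and FARS2 by 0.0061 ± 0.11. PARS2, for proline, differed by 0.11 ± 0.14 and CARS2, for cysteine, by -0.083 ± 0.12. YARS2, LARS2, MARS2, HARS2 and WARS2 differed by between -0.021 and 0.046. The sign of TARS2 and of FARS2 turned under each of the other scalings.

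Single libraries stood out in both compartments. Control replicate 1 held the highest value of 8 of the 19 cytosolic genes, among them MARS, YARS, SARS and QARS. MARS measured 33.5 FPKM there and between 21.4 and 25.1 FPKM in the other 5 libraries. The same library held the lowest value of 4 of the 15 mitochondrial genes, among them NARS2, RARS2 and FARS2, and the highest value of 4 others. Vitamin E replicate 1 was highest in 5 cytosolic genes, KARS, IARS, WARS, TARS and FARSA, and in 5 mitochondrial genes. Vitamin E replicate 3 held the lowest value of 6 cytosolic genes and control replicate 2 that of 5.

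**Figure D4:**
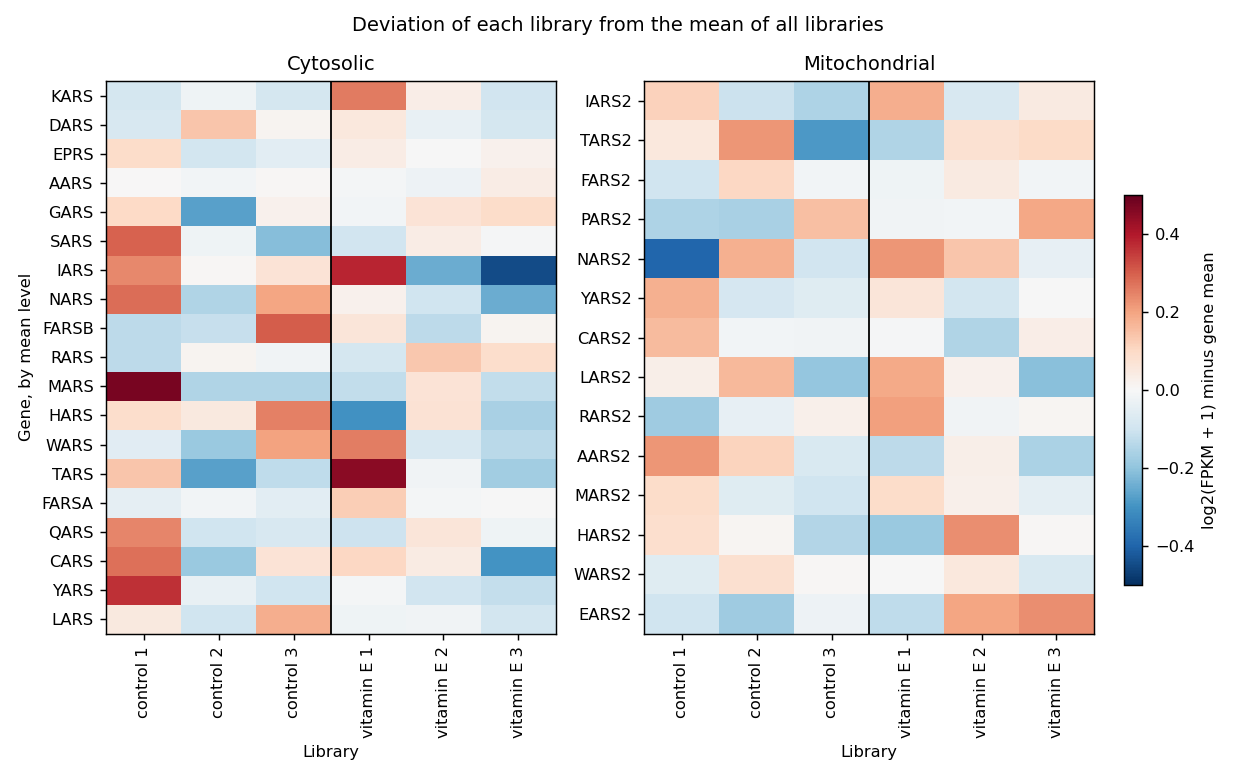
Deviation of log2(FPKM + 1) in each library from the gene's mean over the 6 libraries, red for higher and blue for lower, for the 19 cytosolic and 14 mitochondrial genes, with a line between the 3 control and the 3 vitamin E libraries. Single libraries stand out (MARS in control 1, IARS and TARS in vitamin E 1, NARS2 in control 1), and no block of genes changes colour at the line.

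Within a diet, the SD of log2(FPKM + 1) had a median of 0.154 over cytosolic genes and 0.138 over mitochondrial genes. All tested genes had a median of 0.188, those in the level range of the cytosolic genes 0.180 and those in the mitochondrial range 0.191. The added 1 narrows the spread of low genes, as in EARS2, at 0.151 on this scale and 0.296 on log2 FPKM. On log2 FPKM the order turned, with medians of 0.181 (AARS2) for mitochondrial and 0.163 (HARS) for cytosolic genes. The range among the 34 was wide. The within-group SD of log2 FPKM was 0.024 for AARS, where the reads alone predict 0.032, and 0.057 for FARSA, where they predict 0.070. It was 0.331 for IARS, where counting predicts 0.033, and 0.288 for TARS, where counting predicts 0.056. In 6 of the 34 genes the spread was under the counting prediction, and in 13 under 2 times it. These predictions cover counting error only, since reads without molecular identifiers are not independent molecules.

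**Figure D5:**
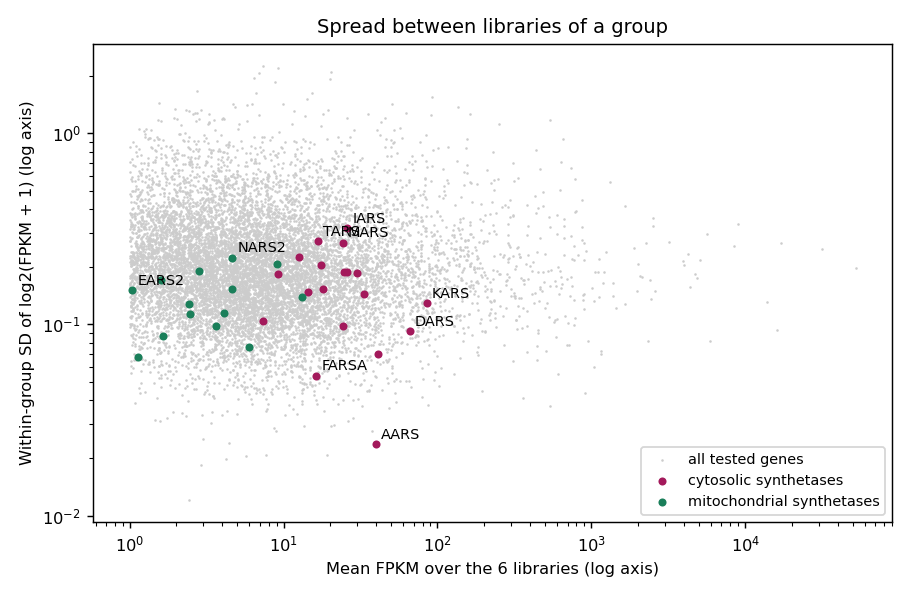
Within-group SD of log2(FPKM + 1) against mean FPKM, both on log axes, for all 11320 tested genes (grey), cytosolic synthetases (magenta) and 14 mitochondrial synthetases (green). The synthetases lie within the cloud, with AARS near its lower edge at 39.6 FPKM and IARS the highest of the 34.

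The scaffold proteins of the complex were measured as AIMP1, AIMP2 and EEF1E1, and 0 of the 3 passed. AIMP1 measured 41.0, 38.8 and 46.2 FPKM in controls, against 60.03, 47.8 and 44.7 FPKM with vitamin E, a log2 difference of 0.26 ± 0.15 (SE) that was 0.14 without vitamin E replicate 1. EEF1E1 measured 60.3, 40.8 and 38.8 FPKM in controls, against 31.4, 23.6 and 46.6 FPKM with vitamin E, a difference of -0.48 ± 0.27 (limma, adjusted p = 0.639). It was -0.28 when control replicate 1 was left out, and -0.25 or -0.73 when the second or the third vitamin E library was. Without the third, EEF1E1 was lower at an unadjusted p under 0.05, where 8.67% of all genes passed either way. AIMP2 averaged 60.5 ± 8.69 and 62.0 ± 3.80 FPKM (SD, n = 3), a difference of 0.044 that was -0.067 without control replicate 1. EEF1E1 thus varied 2.56-fold over the libraries, more than any synthetase of the complex, and its diets overlapped.

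In the wider pathway, no gene passed over all genes. Over all tested genes, 5.97% were higher and 3.14% lower at an unadjusted p under 0.05, the shares to set beside each list below. Of 11 tested accessory genes of transfer RNA charging and editing, 1 was higher at an unadjusted p under 0.05 and 0 lower. It was DTD2, which encodes an enzyme that removes wrongly attached amino acids, at 4.40, 6.09 and 4.91 FPKM in controls, against 8.48, 7.22 and 8.54 FPKM with vitamin E (log2 difference 0.57 ± 0.14, SE; limma, adjusted p = 0.320). Every vitamin E library lay above every control, as in 8.86% of all tested genes. Of 16 genes of transfer RNA maturation, 1 was higher (0 without vitamin E replicate 1, where 483 of all genes were) and 0 lower. It was RPP38, a subunit of ribonuclease P, at 2.90 ± 0.153 and 3.97 ± 0.381 FPKM (SD, n = 3).

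Of 6 cytosolic elongation genes, 1 was higher, EEF1A1, whose product delivers charged transfer RNA to the ribosome. It measured 498, 392 and 439 FPKM in controls, against 619, 583 and 571 FPKM with vitamin E, again with no overlap (limma, adjusted p = 0.409). Of 72 cytosolic ribosomal protein genes, 16 were higher and 0 lower at an unadjusted p under 0.05 (5.97% and 3.14% of all tested genes). Their median log2 difference was 0.18. RPL3, with the smallest p of that list, measured 236, 199 and 218 FPKM in controls, against 304, 341 and 301 FPKM with vitamin E (limma, adjusted p = 0.30). The count of 16 was 8 with TMM-type or median-of-ratios scaling and 6 with quantile normalization. Over all tested genes 598, 590 and 592 were higher under these, against 676 in the main fit. The count was 8 without control replicate 1 (619 over all genes), and again without the third vitamin E library (702). It was 9 without control replicate 2 (940), and again without the second vitamin E library (433). Quantile normalization, and leaving out the third vitamin E library, each gave 1 lower gene. The median of the list stayed positive in each of these, between 0.15 and 0.23.

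In the mitochondrion, 2 of 68 ribosomal protein genes were higher and 0 lower at an unadjusted p under 0.05 (5.97% and 3.14% of all tested genes). Their median of 0.048 was -0.026 without control replicate 1. Leaving out the first library of either diet gave 1 higher gene. Leaving out the second of either gave 3, with 1 lower where it was the control. Over all tested genes 619 and 483 were higher without the first control and the first vitamin E library, against 676 with all libraries. Without the second control and the second vitamin E library 940 and 433 were higher. Without that control 617 were lower, against 355. With all libraries the 2 higher genes of the list were MRPS21, at 35.2 ± 3.37 and 47.1 ± 4.64 FPKM, and MRPL48, at 23.3 ± 4.63 and 31.6 ± 1.48 FPKM (SD, n = 3). Among 6 genes of mitochondrial initiation, elongation and release factors there were 0 in either direction.

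The synthetases that answer to amino acid shortage in mammalian cells numbered 12 among the measured cytosolic genes. Their median log2 difference was -0.064, that of the other 7 was -0.037, and 0 of either had an unadjusted p under 0.05. Of 15 other tested genes of the amino acid response, 1 was higher, CHAC1, and 1 lower, CTH (all tested genes 5.97% and 3.14%). Leaving out control replicate 2, or the first or the third vitamin E library, gave 0 lower genes, and leaving out control replicate 3 gave 2. The higher count was 2 without control replicate 2. Over all tested genes 940 were higher and 617 lower in that fit, against 676 and 355 with all libraries. Without the first or the third vitamin E library 290 and 279 were lower, and 413 without control replicate 3. CHAC1, which encodes an enzyme that degrades glutathione and is a target of ATF4 in mammals, measured 1.21, 11.7 and 1.46 FPKM in controls, against 42.8, 115 and 203 FPKM with vitamin E. The lowest vitamin E library was above the highest control (log2 difference 4.63 ± 0.78, SE; limma, adjusted p = 0.248). The median of these 15 genes was 0.055, and it was -0.050 without vitamin E replicate 2. CTH, which encodes an enzyme of cysteine synthesis, averaged 18.8 ± 3.85 and 12.9 ± 1.81 FPKM (SD, n = 3). In 0 of the 12 synthetase genes on the mammalian list were the diets apart in either direction. Over all tested genes they were apart in 8.86% as higher and 5.72% as lower.

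Of 14 tested amino acid transporter genes, which supply the synthetases with substrate, 1 was higher and 0 lower at an unadjusted p under 0.05. The shares of all tested genes were 5.97% and 3.14%, and the median of the list was -0.019. Leaving out control replicate 1 gave a median of 0.066, leaving out the second vitamin E library gave -0.098, and 1 gene was lower without control replicate 2. Over all tested genes 617 were lower in that last fit, against 355 with all libraries. The higher gene was SLC43A2, a carrier of large neutral amino acids, with 11.2, 12.6 and 4.14 FPKM in controls, against 52.1, 52.8 and 40.7 FPKM with vitamin E (log2 difference 2.38 ± 0.35, SE; limma, adjusted p = 0.248).

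WARS, for tryptophan, is induced by interferon in mammalian cells. It measured 16.7, 15.1 and 20.1 FPKM in controls, against 20.9, 16.4 and 15.8 FPKM with vitamin E, with overlapping diets. Of 16 tested interferon response genes, 0 were higher and 2 lower at an unadjusted p under 0.05 (5.97% and 3.14% of all tested genes). The median of the list was -0.48, or -0.016 without control replicate 2. Leaving out control replicate 3 gave 7 lower genes in place of 2, and vitamin E replicate 1 gave 3. Over all tested genes 413 and 290 were lower in these fits, against 355 with all libraries. Leaving out control replicate 1, or either of the other vitamin E libraries, gave 1, with 292, 257 and 279 lower over all genes. The difference of WARS was 0.027.

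Some synthetases are in the table under other names and were not counted among the 34. The row CTC-360G5.8, which the table matches to the mitochondrial serine enzyme, averaged 3.47 FPKM on the control diet, against 3.32 FPKM with vitamin E. LOC107050659, matched to a valine enzyme, averaged 10.1 and 8.21 FPKM, and LOC107049913, matched to the mitochondrial valine enzyme, averaged 2.34 and 3.28 FPKM. In the latter the vitamin E libraries, at 2.75, 4.43 and 2.68 FPKM, lay above the controls, at 2.45, 2.38 and 2.19 FPKM. The groups were apart in this direction in 8.86% of all tested genes. TARSL2, a second threonine enzyme of the cytosol, averaged 17.5 and 16.7 FPKM, about the level of TARS. LOC101750690, matched to the mitochondrial tryptophan enzyme, averaged 1.14 and 1.24 FPKM. None of these 5 had an unadjusted p under 0.05, where 5.97% of all tested genes were higher and 3.14% lower. The other 2 such rows were near 0.

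Skeletal muscle markers, with 11 genes tested, had the highest summed level of the marker lists. It was 71000 to 84500 FPKM in controls, against 65600 to 73600 FPKM with vitamin E. Fibroblast markers summed to 1590 to 1830 FPKM in controls, against 2290 to 3180 FPKM with vitamin E. At an unadjusted p under 0.05, 7 of 8 were higher and 0 lower (5.97% and 3.14% of all tested genes). The higher count was 4 without control replicate 3 and again without vitamin E replicate 1. Over all tested genes 445 and 483 were higher there, against 676 with all libraries. The erythroid genes HBAA and HBAD were both higher at that level. Their count was 0 with TMM-type or median-of-ratios scaling, with no filter, or without vitamin E replicate 2 or 3, and 1 without control replicate 2 or vitamin E replicate 1. Over all tested genes 598 and 590 were higher with these scalings, and 980 of 20943 with no filter. Without vitamin E replicate 2 or 3 there were 433 and 702, and 940 without control replicate 2. The erythroid list summed to 34.5 to 72.5 and 76.0 to 97.9 FPKM. Endothelial markers summed to 149 to 214 and 178 to 231 FPKM, adipocyte markers to 142 to 226 and 242 to 375 FPKM, macrophage and lymphocyte markers to 478 to 941 and 661 to 838 FPKM, and Schwann cell markers to 35.9 to 60.5 and 35.7 to 51.6 FPKM. The Schwann cell markers SOX10 and S100B were under 1 FPKM in every library, as was PVALB among the muscle markers. The part of these markers in the synthetase values was not tested.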

How the data were processed

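The authors deposited a single table of FPKM values, with 1 row per gene and 1 column per library. The submitters' processing notes name TopHat2 2.0.12, and the read counter, annotation, genome build and handling of strand are not stated in any source used here. Library totals and whole reads were recovered from the FPKM steps, within a relative tolerance of 1e-09, for all 11320 tested genes. Chromosomes were named by the gene symbols each sequence record shares with a RefSeq table of assembly GRCg7b (at least 99% on 1 chromosome), and MARS lies on a record left unnamed. Diets were compared by a two-sided test in limma 3.58.1 (R 4.3.3). It was fitted to log2(FPKM + 1), with the prior variance following the mean level, over genes whose mean reached 1 FPKM, with Benjamini-Hochberg adjustment over all 11320 genes at a threshold of 0.05. The scale understates the change of low genes. With 3 libraries a diet, no exact permutation p can be under 0.1, so none is given. The fit was tested on simulated reads. Members and lists were chosen with earlier results of these data known. Values in every library are given for the 8 cytosolic and 5 mitochondrial genes with the smallest p, the 3 highest of each, GARS, KARS and the scaffolds, and for up to 3 genes of every other list. A mitochondrial gene is counted in the totals and is otherwise not reported here. In 22 rows the gene name reads as a date and matches no list. AARS, FARSA, WARS, MARS and FARSB were picked out after their values were seen. Alternatives were a pseudocount of 0.1, no filter, a stricter filter of 5 FPKM, 3 other scalings (median-of-ratios, TMM-type and quantile), no trend, 2 blocks, and each library left out. The data had been seen when voom on the recovered reads was added. Plots were made in matplotlib 3.10.9.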

Additional observations from a re-analysis of the deposited data

How the results depend on the processing

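No synthetase gene had an adjusted p under 0.05 in the 16 alternatives. Over all genes 2 were called with a minimum of 5 FPKM, which left 22 of the 34 synthetases to test, and 2 with voom, against 0 in the other alternatives; the cause was not tested. At an unadjusted p under 0.05 the count of lower synthetases ranged from 0 to 1 when libraries were left out: NARS without control replicate 2 (where 13.8% of all genes passed either way), IARS without vitamin E replicate 1 (6.83%) and HARS without vitamin E replicate 2 (6.12%). EARS2 fell under the filter without vitamin E replicate 2 or 3. The cytosolic median was 0.0074 without control replicate 1 and between -0.078 and -0.016 without the others. The mitochondrial median was -0.013 with quantile normalization and between 0.00046 and 0.059 without single libraries. The sign of FARS2 turned with quantile (-0.018), TMM-type (-0.019) and median-of-ratios scaling (-0.020), and that of TARS2 with the same (-0.0139, -0.0145 and -0.0155). Without single libraries FARS2 ranged from -0.041 to 0.059, TARS2 from -0.129 to 0.124, TARS from -0.0085 to 0.303, GARS from -0.013 to 0.173, DARS from -0.0996 to 0.0091 and AIMP2 from -0.067 to 0.139. Of 472 values of 30 genes under the alternatives, 15 changed sign and 0 became significant. Many of the 472 could not change sign. The other filters, the fit without a trend and the 2 blocks leave the log2 difference of a gene as it was.

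Deviations of same-numbered libraries correlated at -0.129, 0.149 and 0.0122 over tested genes. Only the second control and vitamin E libraries correlated best with their own number. The 3 deviations of a group are tied to a shared mean, so these correlations cannot decide whether the replicate number is a pairing. With the replicate block 0 synthetases passed. The medians stayed at -0.042 and 0.037, which was fixed in advance, since each replicate number holds 1 library of each diet. At an unadjusted p under 0.05, 10 of 72 cytosolic ribosomal protein genes were higher and 4 of 16 interferon genes lower. Of 14 transporters 1 was lower, and of 2 erythroid genes 1 was higher. In that fit 9.21% of all tested genes reached this level, 659 as higher and 384 as lower. With the digit in the sample descriptions, of unstated meaning, as a block, 0 synthetases passed. The counts of the same lists, in the same order, were 11, 3, 0 and 1. Of all tested genes 8.93% reached that level there, 684 as higher and 327 as lower. Depth limits EARS2, MARS2, HARS2, WARS2 and PARS2 most, which had under 100 reads in a library.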
